A study of Mus musculus with 9 samples.

Results

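Serum response factor (SRF) and the actin cytoskeleton genes it is known to control were examined in OB-6 cells, a mouse osteoblastic line, before and during the first hour of parathyroid hormone (PTH). The set was defined as every probe set, control sets left out, whose annotated symbol was Srf, Acta2, Actb, Actg1, Tagln, Cnn1, Myl9, Tpm1, Tpm2 or Vcl. It comprised 12 probe sets of 9 genes, out of 12488 probe sets on the array. Srf itself was the 1 of the 10 listed genes without a probe set and has no value here. The groups were OB-6 cells at 0, 30 and 60 min of PTH treatment, with 3 arrays each, named a, b and c, and the 0 min arrays are labelled as the basal level. The labels state neither the dose of PTH nor how the cells were grown. The series holds no time-matched cultures without the hormone, so elapsed time and PTH cannot be told apart. Whether replicates a, b and c were grown as separate cultures is not stated, so every p-value measures the spread between arrays, which may be technical.

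SRF is a transcription factor that binds a short AT-rich element called the CArG box. It works with 2 kinds of partner. Ternary complex factors such as Elk1 are switched on by MAP kinases and drive immediate-early genes such as Fos and Egr1. Myocardin-related factors such as Mrtfa are held in the cytoplasm by monomeric actin. They are released when actin polymerises, and drive genes of the cytoskeleton itself, including actins, tropomyosins, calponin, transgelin and vinculin. In osteoblasts PTH acts through a receptor coupled to cAMP, and cAMP signalling is known to dissolve stress fibres in many adherent cells.

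To show where these genes carry the element, the RefSeq promoters of GRCm38.p6 were searched over the 250 bases before the start site for exact matches to the CArG box, which reads the same on both strands. Sequences were found for 8 of the 10 genes, Actb and Tagln being without an entry. The box was present in 1.47% of all 32851 promoters in the table. It was present in 4 of the 8 here, those of Srf, with 2 boxes, Actg1, Myl9 and Vcl. The genes were listed as known targets of SRF, so this share is not an independent result. The matches are given in capitals, with their first bases 82 and 62 bases before the start site in Srf, 90 in Actg1, 161 in Myl9 and 227 in Vcl. The windows, each written 5′ to 3′ on the strand of its gene, are chr17:46556190-46556269 on the minus strand for Srf, chr11:120348551-120348610 on the minus strand for Actg1, chr2:156775278-156775337 on the plus strand for Myl9 and chr14:20929148-20929205 on the plus strand for Vcl.
Srf: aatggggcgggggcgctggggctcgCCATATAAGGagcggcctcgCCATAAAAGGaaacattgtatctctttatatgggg
Actg1: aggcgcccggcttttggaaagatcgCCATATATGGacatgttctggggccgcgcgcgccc
Myl9: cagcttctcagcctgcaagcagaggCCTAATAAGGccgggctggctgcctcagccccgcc
Vcl: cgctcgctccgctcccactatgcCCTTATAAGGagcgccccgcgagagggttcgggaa

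With 1 mismatch allowed, a box was found in 18.6% of all promoters. Among the members this added Acta2, with CCCTATATGG beginning 84 bases and CCTTGTTTGG beginning 34 bases before the start, and Tpm1, with CCATATATAG at 221 and CCAAAAAAGT at 80. Cnn1 and Tpm2 had no box in this window at either setting. The cAMP response element TGACGTCA, read as a palindrome, was in 1.55% of all promoters and in 0 of these 8. A match is a description of the letters in this window and does not show binding.

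The osteoblastic label was checked against 11 listed marker genes. Of these 7 had a probe set with a single symbol, and 6 passed the filter on dim values. Runx2, Sp7, Bglap and Spp1 had no such probe set and were not read. The matrix genes Col1a2, Bgn, Col1a1 and Sparc averaged 5544, 4872, 4681 and 3468 over the 9 arrays. Alpl and Ibsp, which also passed, were far dimmer, with means of 261 and 98.0. At 60 min 1 of the 6 was called, Col1a1, with means of 3809 at 0 min and 5518 at 60 min. Its log2 fold change was 0.56 (limma adjusted p = 0.0499), where 4.35% of all tested probe sets rose. Bgn, Alpl, Col1a2 and Sparc stood at 0.37, 0.31, 0.17 and 0.15, with limma adjusted p from 0.0603 to 0.325. Ibsp averaged 117 at 0 min and 66.6 at 60 min (limma adjusted p = 0.0576). The probe set of Pth1r, the PTH receptor, lay between 6.70 and 41.6 and did not pass. Endothelial markers passed in 0 of 5 cases, adipocyte markers in 2 of 4, haematopoietic ones in 3 of 7 and skeletal and heart muscle ones in 6 of 10. Of all 12422 probe sets outside the controls 7884 passed, so passing does not by itself mark a cell type. The summed intensity of the osteoblast markers was 16416 to 18274 at 0 min, 17576 to 18566 at 30 min and 19352 to 23696 at 60 min. The 99th percentile of all intensities was 3474 to 3606, 3443 to 3780 and 3852 to 4722 on the arrays of these times. Its part in these sums was not tested. Replicate b at 60 min was the least like the other arrays: its median correlation with them was 0.938, where the remaining 8 arrays had 0.954 to 0.967.

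Of the 12 probe sets, 11 passed the filter and were tested. The exception was the second set of Tpm2, which exceeded the filter value on 1 of 9 arrays and ranged from 13.8 to 56.9. Vcl fell after 60 min of PTH, and no other member passed the threshold in any comparison. Against 0 min, 0 of 11 member probe sets changed at 30 min by limma at an adjusted p under 0.05, with 0 at an unadjusted p under 0.05, where 0.939% of all tested probe sets were called, 0.482% higher and 0.457% lower. At 60 min 0 rose and 1 fell, with 2 at an unadjusted p under 0.05, where 8.73% of all tested probe sets fell and 4.35% rose. The share of members that fell, 9.09%, was thus close to that of the whole array. Between 60 and 30 min 0 of 11 changed, with 1 at an unadjusted p under 0.05 and 0.0254% of all tested probe sets called. The F test over the 3 times called 1 of 11, the brighter set of Vcl, against 4.64% of all tested probe sets, and that call was lost without any single 0 min array. The median log2 fold change of the 11 sets was 0.02 at 30 min and -0.02 at 60 min, against 0.05 and 0.03 over all tested probe sets. All log2 fold changes are differences of log2(intensity + 11.8). At 30 min the arrays of 2 member sets lay wholly above those of 0 min and those of 1 wholly below, as did 15.3% of all tested probe sets in each direction. At 60 min the counts were 1 above and 2 below, where 20% and 20.7% of all tested probe sets did so. Between 60 and 30 min they were 0 above and 1 below, where 5.06% and 6.49% did so.

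**Figure D1:**
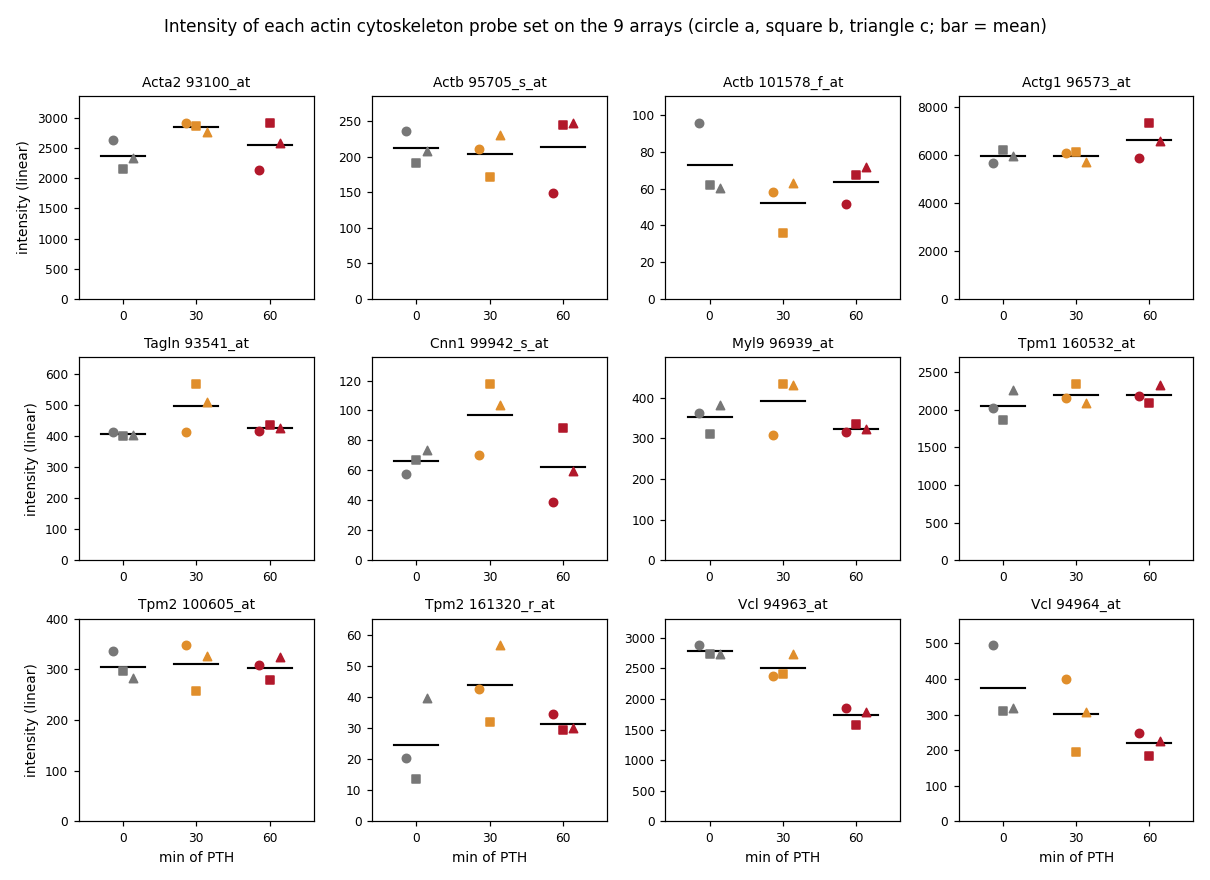
Linear intensity of the 12 member probe sets on the 9 arrays, against min of PTH; points are arrays, with circles, squares and triangles for replicates a, b and c, and bars are means of 3. The 3 arrays at 60 min lie below all 3 at 0 min in both Vcl panels. In the Acta2, Tagln, Cnn1, Myl9 and both Tpm2 panels the highest mean is that at 30 min.

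Vinculin, encoded by Vcl, joins talin and other adhesion proteins to actin filaments at focal adhesions and adherens junctions. Its brighter probe set read 2882, 2742 and 2736 at 0 min, 2371, 2404 and 2732 at 30 min, and 1860, 1581 and 1782 at 60 min. The 3 arrays at each later time lay below all 3 at 0 min, narrowly at 30 min and by a wide gap at 60 min. The groups did not overlap in either direction for 30.6% of all tested probe sets at 30 min and for 40.7% at 60 min. Vcl averaged 1741 ± 144 at 60 min and 2787 ± 82.7 at 0 min (SD, n = 3 arrays each), and so fell to 0.625 of its 0 min level, with a 95% interval of 0.538 to 0.726. The log2 fold change was -0.68 (SE 0.10, limma adjusted p = 0.00693). In bulk RNA, fewer cells that express a gene and less RNA per cell cannot be told apart.

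At 30 min Vcl stood at a log2 fold change of -0.16 against 0 min (SE 0.10, limma adjusted p = 0.42), with an interval of -0.37 to 0.06. The difference between 60 and 30 min was -0.52 (SE 0.10), with the arrays again not overlapping, as for 11.6% of all tested probe sets. Its adjusted p was 0.28, while the unadjusted limma p was 0.000271, since 2 of 7884 probe sets passed in that comparison. Neither step between neighbouring times therefore passed the threshold for Vcl, while the difference over the whole hour did.

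The dimmer Vcl probe set read 495, 311 and 318 at 0 min, 398, 196 and 306 at 30 min, and 249, 185 and 225 at 60 min. The 60 min arrays again lay below all 0 min arrays. It was noisier, with coefficients of variation of 27.9% at 0 min and 33.8% at 30 min, against 2.97% and 8.0% for the brighter set. Its log2 fold change at 60 min was -0.72 (SE 0.25, interval -1.27 to -0.16), close to that of the brighter set, with a limma adjusted p of 0.0805 that missed the threshold. At 30 min it stood at -0.33 (SE 0.25), and leaving out single arrays moved it to -0.56 (30 min replicate a omitted), -0.07 (30 min replicate b) or -0.12 (0 min replicate a). At 60 min the same step gave values from -0.83 (0 min replicate b omitted) to -0.51 (0 min replicate a). Both probe sets of Vcl were thus lower on all 60 min arrays than on all 0 min arrays, and the change passed the threshold for the brighter one.

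**Figure D2:**
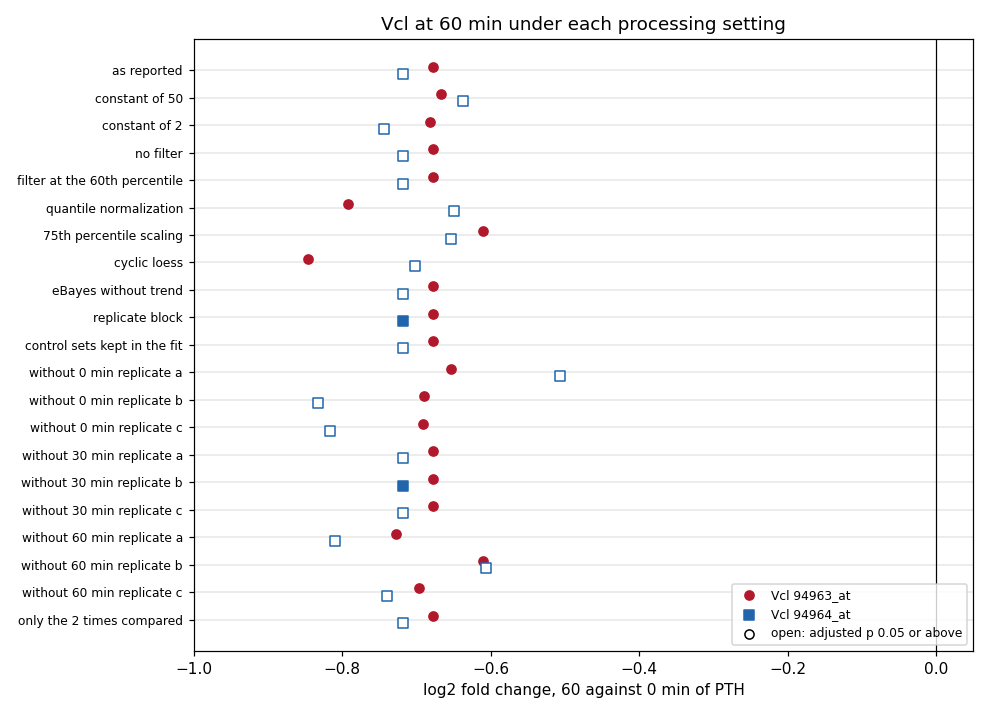
Log2 fold change of the 2 Vcl probe sets at 60 min against 0 min of PTH (x axis) under each processing setting (rows); filled points have an adjusted p under 0.05. The brighter set stays filled in every row, between -0.85 and -0.61, and the dimmer set is filled in 2 of the 21 rows.

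The call of the brighter Vcl set at 60 min was kept in each of the 20 alternatives run, with log2 fold changes from -0.85 after cyclic loess to -0.61 after 75th percentile scaling, and adjusted p from 0.00343 to 0.0460. Without 60 min replicate b it was -0.61 with an adjusted p of 0.00893. The 5 probe sets with 1 gene symbol whose course over the 9 arrays was nearest to that of the brighter Vcl set, out of 7113 compared, belonged to Plcb1, Nek4, Clip4, Rcbtb1 and Usp8. Likeness was the root mean square difference of log2 values after taking off each 0 min mean, and lay between 0.07 and 0.12 for these 5. Their log2 fold changes were -0.11 for Plcb1, -0.24 for Nek4, -0.21 for Clip4, -0.27 for Rcbtb1 and -0.33 for Usp8 at 30 min, and -0.76, -0.62, -0.56, -0.64 and -0.73 in the same order at 60 min. At 60 min Nek4 missed the threshold (limma adjusted p = 0.0574) and the other 4 passed it, with adjusted p from 0.0113 to 0.0403. The 60 min arrays of Plcb1 and Nek4 all lay below the filter value of 44.7, so both passed the filter through earlier arrays. The second probe set of Vcl ranked 941 by this measure.

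Acta2 encodes smooth muscle alpha-actin, a component of contractile stress fibres also made by bone marrow stromal cells. Its probe set read 2636, 2151 and 2328 at 0 min, 2914, 2856 and 2771 at 30 min, and 2133, 2920 and 2578 at 60 min. The 30 min arrays lay above all 0 min arrays, and the 60 min arrays overlapped both. Its log2 fold change at 30 min was 0.27 (SE 0.12, interval -0.00 to 0.54, limma adjusted p = 0.286), and at 60 min it was 0.09 (SE 0.12). With quantile normalization the 60 min value was -0.04 and with cyclic loess -0.08, so no direction is given for it.

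Tagln encodes transgelin, an actin-bundling protein of contractile cells. It read 415, 402 and 405 at 0 min, 415, 570 and 513 at 30 min, and 417, 435 and 426 at 60 min. The 0 min and 60 min arrays were each within a narrow band, and at 30 min replicate a lay just above the highest 0 min array while b and c were clearly higher. All arrays of both later times thus lay above all 0 min arrays, at 60 min by a small margin. The log2 fold change was 0.28 at 30 min (SE 0.13, limma adjusted p = 0.283) and 0.06 at 60 min (SE 0.13).

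Cnn1, calponin, binds actin and tropomyosin and restrains the myosin ATPase. Its dim probe set read 57.5, 67.1 and 73.9 at 0 min, 70.1, 118 and 103 at 30 min, and 38.7, 88.4 and 59.3 at 60 min. The groups overlapped in every comparison. The log2 fold change was 0.46 at 30 min (SE 0.27, interval -0.13 to 1.05) and -0.13 at 60 min (SE 0.27), with limma adjusted p of 0.384 and 0.782.

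Myl9 encodes the regulatory light chain that switches on non-muscle and smooth muscle myosin when phosphorylated. It read 361, 312 and 382 at 0 min, 307, 434 and 432 at 30 min, and 315, 334 and 322 at 60 min. As for Tagln and Cnn1, replicate a was the lowest of the 30 min arrays. The log2 fold change was 0.14 at 30 min and -0.11 at 60 min (SE 0.15 for both), with adjusted p of 0.637 and 0.65.

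For these contractile genes the 30 min arrays are thus split, with replicates b and c above a for Tagln, Cnn1 and Myl9 and the 3 arrays close together for Acta2. None of the 4 had a change past the threshold at 30 min in the fit reported or in the 20 alternatives for Acta2, Tagln and Myl9 and 19 for Cnn1. Of 7 listed smooth muscle markers 5 had a probe set and 2 passed the filter, Smtn and Actg2, while Myh11 lay between 3.10 and 16.1, Des between 11.3 and 49.5 and Itga8 between 3.0 and 16.4. Their summed intensity was 981 to 1051 at 0 min, 1071 to 1255 at 30 min and 1162 to 1338 at 60 min. For the 10 skeletal and heart muscle markers with a probe set the sum was 763 to 987, 1009 to 1252 and 939 to 1234 at 0, 30 and 60 min. The brightest of these was Actc1, read by a family set, while Acta1, Tnnt3, Tnnt2 and Ryr1 did not pass the filter. Ckm, muscle creatine kinase, named after its values were seen, averaged 106 ± 16.9 at 60 min and 53.4 ± 10.9 at 0 min (SD, n = 3 each), a log2 fold change of 0.86 (limma adjusted p = 0.0197). It was the 1 called at 60 min of the 6 tested skeletal and heart muscle markers, where 4.35% of all tested probe sets rose. Actc1, Myod1, Myh7, Tnnc1 and Myog stood at 0.37, 0.24, 0.12, -0.06 and -0.53, with limma adjusted p from 0.114 to 0.902. The part of these markers in the values of the members was not tested.

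**Figure D3:**
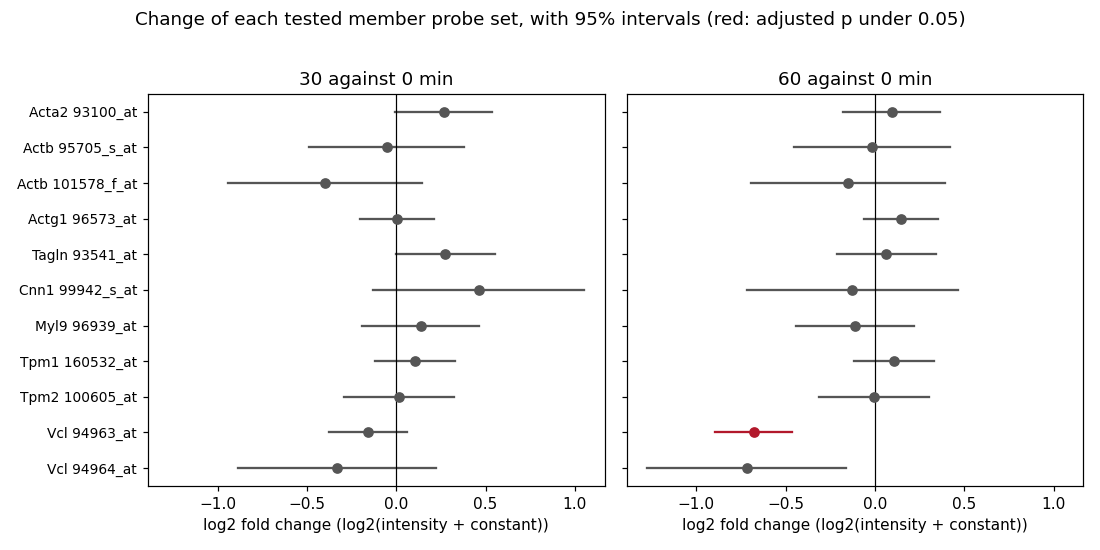
Log2 fold change of the 11 tested member probe sets (points) with limma's 95% interval (lines) at 30 min (left) and 60 min (right), each against 0 min of PTH. The single red point with an adjusted p under 0.05 is the brighter Vcl set at 60 min, and every other interval but that of the second Vcl set at 60 min includes 0.

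Actg1 encodes cytoplasmic gamma-actin, a building block of the filaments of non-muscle cells. It was among the steadiest members, reading 5693, 6230 and 5980 at 0 min, 6102, 6136 and 5721 at 30 min, and 5906, 7368 and 6603 at 60 min. The groups overlapped throughout, with 60 min replicate b the highest value. The log2 fold change was 0.00 at 30 min and 0.15 at 60 min (SE 0.09 for both), and the interval at 60 min allowed a level of 0.959 to 1.28 times that at 0 min. With quantile normalization it was -0.12 at 60 min and with cyclic loess -0.11, so no direction is given.

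Actb encodes cytoplasmic beta-actin, which differs from gamma-actin by only a few residues. Its brighter member set, which has the suffix for shared probes, read 237, 192 and 208 at 0 min, 211, 172 and 231 at 30 min, and 149, 245 and 248 at 60 min. Its dimmer set, which has the suffix for a gene family, ranged from 36.1 to 95.9 over the 9 arrays. The groups overlapped in both, and the log2 fold changes at 60 min were -0.02 (SE 0.20) and -0.15 (SE 0.25). Since such probes may also reach other transcripts, their signal cannot be assigned to beta-actin alone.

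The manufacturer's beta-actin control sets, which the definition of the members leaves out, did not share this course. The set for the 5' part of the transcript read 3259, 3653 and 2982 at 0 min, 4006, 3571 and 2429 at 30 min, and 4761, 5530 and 4708 at 60 min. The 3 such sets analysed, for the 5' part, the middle and the 3' part, were higher on every 60 min array than on every 0 min array. This held for 20% of all tested probe sets. With the control sets kept in the fit, an alternative chosen after seeing the data, the log2 fold change at 60 min was 0.60 for the 5' set (SE 0.17, limma adjusted p = 0.0407), 1.05 for the 3' set (adjusted p = 0.1) and 0.40 for the middle set (adjusted p = 0.108). The ratio of the 3' to the 5' beta-actin signal was 0.341 to 0.809 at 0 min, 0.302 to 0.657 at 30 min and 0.563 to 0.874 at 60 min. The same ratio for Gapdh was 0.702 to 0.859, 0.666 to 0.818 and 0.719 to 0.783 at 0, 30 and 60 min. Gapdh control sets stood 1.20 to 1.24 times higher at 60 min than at 0 min. Those for the 5' part and the middle of Gapdh were also higher on every 60 min array than on every 0 min array. The times overlapped for the 3' set of Gapdh. The 99th percentile of all intensities was also higher on the 60 min arrays, at 3852 to 4722 against 3474 to 3606 at 0 min. Its part in the values of these control sets was not tested. Whether the course of the beta-actin control sets is that of Actb mRNA was not tested.

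**Figure D4:**
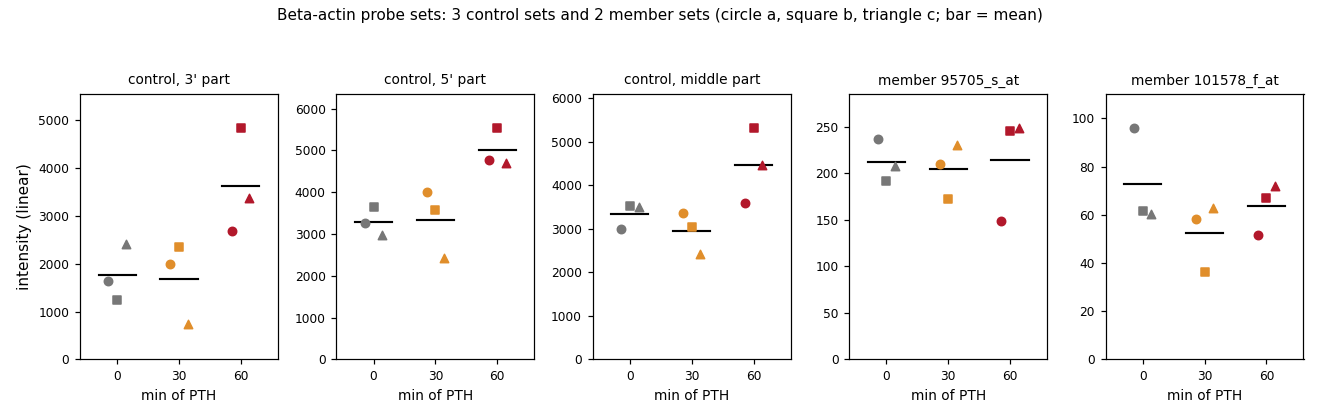
Linear intensity of the 3 beta-actin control sets and the 2 Actb member sets on the 9 arrays, against min of PTH, with bars for means of 3 and circles, squares and triangles for replicates a, b and c. In each control panel the 3 points at 60 min lie above all 3 at 0 min, as for 20% of all tested probe sets, and in both member panels the times overlap.

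The tropomyosins lie along actin filaments and set which proteins can bind them. Tpm1 read 2023, 1857 and 2257 at 0 min, 2151, 2344 and 2085 at 30 min, and 2181, 2082 and 2322 at 60 min. Its log2 fold change was 0.10 at both times (SE 0.10), and the interval at 60 min allowed 0.921 to 1.25 times the 0 min level. It turned to -0.06 at 60 min after cyclic loess. Tpm2, by its brighter set, read 335, 298 and 282 at 0 min, 348, 258 and 326 at 30 min, and 308, 279 and 324 at 60 min. Its log2 fold change was 0.02 at 30 min and -0.01 at 60 min (SE 0.14 for both). The groups overlapped for both tropomyosins in every comparison.

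The members differed in how closely replicate arrays agreed, which limits what the test could detect. The standard deviation within times on the log2 scale was 0.10 for the brighter Vcl set and for Actg1 and 0.11 for Tpm1, 0.13 for Tagln, 0.16 for Acta2 and Tpm2 and 0.18 for Myl9. It was 0.27 and 0.30 for the 2 Actb sets, 0.36 for Cnn1 and 0.38 for the dimmer Vcl set, against a median of 0.21 over all tested probe sets. For Cnn1 a level of up to 1.38 times or down to 0.609 times that at 0 min was thus within the interval at 60 min.

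The other genes of these pathways were described by lists, each gene by its brightest probe set. Of 9 tested immediate-early SRF targets, 6 rose and 0 fell at 30 min and the same counts were reached at 60 min, with medians of 1.56 and 1.22. Of all tested probe sets 0.482% rose at 30 min and 4.35% at 60 min. The list was chosen with earlier results of these data known, and the part of SRF in these changes was not tested. Egr2, Fosb and Mcl1 were not called at either time. At 30 min Fosb stood at -0.12 and Mcl1 at 0.08, and Egr2 had a limma adjusted p of 0.0696. At 30 min the largest changes were those of Fos, an AP-1 subunit (log2 fold change 4.05), Egr1, a zinc finger factor (2.74), the matricellular gene Ccn2 (2.30) and Ier2 (2.09). At 60 min Fos stood at 2.06, Egr1 at 1.99, Ier2 at 1.55 and Junb, another AP-1 subunit, at 1.42. Adjusted p for these lay between 3.44e-06 and 0.00277. Fos was the 1 gene of all 6 lists that differed between 60 and 30 min, falling by 1.99, a call lost without 30 min replicate b. The call of Ccn2 at 60 min, with a log2 fold change of 1.22, was lost without 0 min replicates a or b. Among 4 tested cofactors of SRF, Mrtfa, Elk1, Elk3 and Fhl2, 0 passed the threshold at either time, and their log2 fold changes lay between -0.22 and 0.54 at 30 min and between -0.21 and 0.30 at 60 min. The highest, that of Fhl2 at 30 min, had an adjusted p of 0.0573, and 1 cofactor was called at 30 min with a constant of 50, with quantile normalization, with 75th percentile scaling, with the replicate letter as a block, in a fit of 2 times alone and without 60 min replicate b.

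At 30 min 0 genes passed in the lists for other actins and actin-related proteins (4 tested), actin binding and turnover (23), actomyosin and stress fibres (13) and focal adhesions (10), with list medians between 0.02 and 0.31. Without 60 min replicate b 1 gene was called at 30 min in each of these lists but that for actomyosin. Without 30 min replicate a 1 was called in those for actin binding and turnover and for focal adhesions. The list of other actins also had 1 call with a constant of 50, a filter at the 60th percentile, quantile normalization, the block or a fit of 2 times, and actin binding and turnover with the block or a fit of 2 times. At 60 min 2 genes of these 4 lists rose and 4 fell, which is 4.0% and 8.0% of the 50 tested, close to the 4.35% and 8.73% of all tested probe sets. Those that fell included Capza2, a subunit of the actin capping protein (log2 fold change -1.18), and Lims1, an adaptor of integrin-linked kinase at focal adhesions (-1.18). Myh10, a non-muscle myosin heavy chain, fell by 1.0 and Enah, which extends actin filaments, by 0.86. Those that rose were Myl12b, another myosin regulatory light chain (0.68), and Actg2, gamma smooth muscle actin (0.51). Adjusted p for the 6 lay between 0.0167 and 0.0399, and the medians of the lists between 0.04 and 0.20. The Actg2 set is a family set that other actins may reach. The Myh10 set was dim, with means of 101 (SD 11.3) at 0 min and 46.0 (SD 18.4) at 60 min. Its 60 min mean was thus close to the filter value. Myh9, a far brighter myosin heavy chain of the same list, was not called at 60 min. Its means were 4423 at 0 min and 4889 at 60 min, a log2 fold change of 0.14 (limma adjusted p = 0.214).

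All 6 of these calls at 60 min were lost without any single 0 min array. Those of Actg2, Enah, Myh10 and Myl12b were lost without 60 min replicate b, that of Myh10 without 60 min replicate c, and that of Enah without 30 min replicate c. Cyclic loess ended the call of Myl12b, leaving out the filter that of Enah, leaving out the variance trend those of Enah and Myl12b, and a fit of 2 times alone that of Enah. Other settings added calls in these lists. For actin binding and turnover the count of 2 became 7 with the block or without 60 min replicate a, and 3 with a filter at the 60th percentile. For actomyosin it was 4 with 75th percentile scaling in place of 2, and for focal adhesions 2 in place of 1 without 30 min replicate a. The call of the brighter Vcl set at 60 min was kept with any 1 of the 9 arrays left out.

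**Figure D5:**
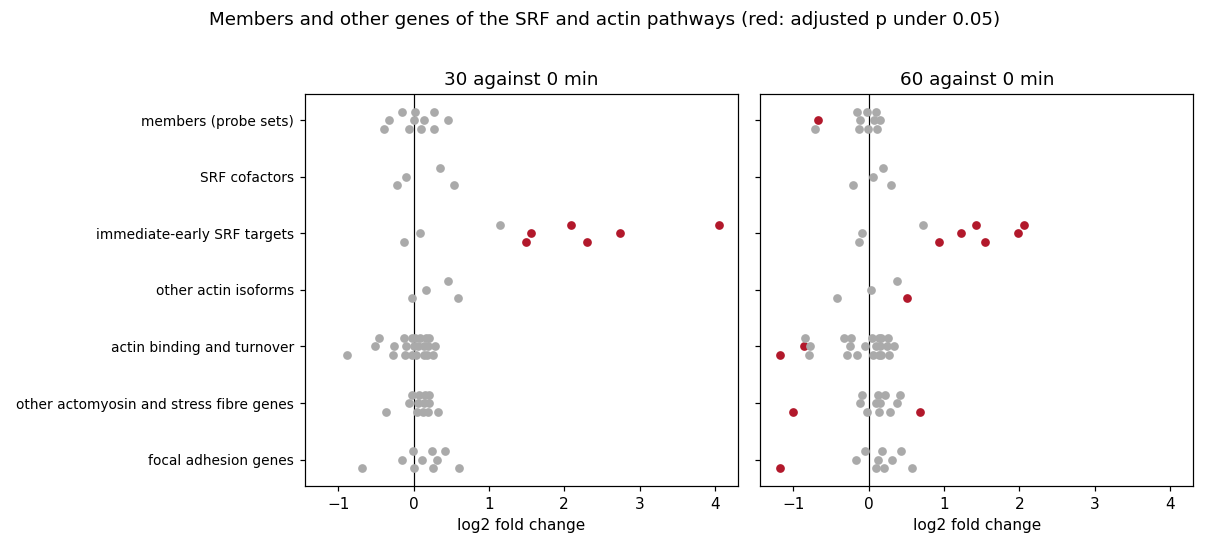
Log2 fold changes of the member probe sets and of the tested genes of 6 pathway lists (rows; 1 point per probe set or gene) at 30 min (left) and 60 min (right), each against 0 min of PTH, with an adjusted p under 0.05 in red. Red points at 30 min occur only in the row of immediate-early SRF targets, from 1.49 to 4.05, and the row of members has 1, Vcl, at 60 min.

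For the array as a whole 74 sets passed the threshold at 30 min (38 higher, 36 lower) and 1031 at 60 min (343 higher, 688 lower). The split of higher to lower moved to 52 and 93 at 30 min after quantile normalization, to 40 and 61 after 75th percentile scaling and to 32 and 60 after cyclic loess. At 60 min it was 500 and 651 after 75th percentile scaling. The members' counts were the same under each of these scalings.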

How the data were processed

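Total RNA of OB-6 cells was hybridised to 9 single-colour short-oligonucleotide arrays, 3 at each of 0, 30 and 60 min of PTH. The deposited table holds 1 linear intensity per probe set and array, already scaled by the authors: with 2% of the values taken off each end, the means of all arrays lay at 250.1 or 250.2. How the intensities were summarised and scaled is not given in the sources used here, and the table was used as deposited. Gene symbols came from the platform annotation, updated through Entrez identifiers with the RefSeq table of GRCm38.p6, which changed 0 symbols. Before the test 11.8, the 20th percentile of the table, was added to each intensity and log2 taken, so fold changes of dim probe sets are understated. A probe set was tested where at least 3 arrays exceeded 44.7, the 40th percentile, and the 66 control sets were left out, which left 7884 of 12488. One mean per time was fitted with limma 3.58.1 in R 4.3.3 (lmFit, then eBayes with trend; the residual degrees of freedom were 6 and the prior ones 4.68), and p-values were adjusted over all tested probe sets by Benjamini-Hochberg at 0.05. Intervals are limma's at 95%. The fit was also run on simulated arrays with independent noise and no array-wide differences, which cannot vouch for the calls in these data. The members, the pathway and marker lists and the naming rule were chosen with earlier results of these data known. All members are named, with a gene described by its brightest probe set. From each pathway list the naming rule took up to 4 genes past the threshold, by size of change, in each comparison with 0 min. For the member with the largest called change it took the 5 probe sets nearest in pattern. For Srf, which had no probe set, this likeness was not computed. Alternatives were other constants, filters and scalings, no variance trend, fits of 2 times alone, the replicate letter as a block, each array left out in turn and, added after seeing the data, the control sets kept in the fit. Python 3.11.15 and matplotlib 3.10.9 drew the figures. One further gene list is not reported here.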

Additional observations from a re-analysis of the deposited data

Results flagged for a closer look

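The 3 control sets analysed for beta-actin, which lie outside the members and the comparisons made, had higher signal on all 3 arrays at 60 min of PTH than on all 3 at 0 min. The same was true of 20% of all tested probe sets, and of the 5' and middle control sets for Gapdh but not its 3' set. The ratio of mean intensities at 60 min to those at 0 min was 2.06 for the 3' set, 1.52 for the 5' set and 1.34 for the middle set. At 30 min the ratios to 0 min were 0.958, 1.01 and 0.882 in the same order, and the arrays overlapped. Groups of 3 arrays are too small for a test of single outlying arrays.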

How the results depend on the processing

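Depth on arrays is signal over background: the second Tpm2 set was too dim to test. The number of members called was 0 at 30 min and 0 between 60 and 30 min in all 20 alternatives. At 60 min it was 1, and 2 with the replicate letter as a block, where the dimmer Vcl set had an adjusted p of 0.0138, and 1 to 2 with 1 array left out, the second call coming without 30 min replicate b (adjusted p = 0.0442). The F test called 1 member, 2 with the block and 0 to 1 with 1 array left out. Deviations of arrays with the same letter correlated at -0.13 to 0.30, and arrays with other letters at -0.27 to 0.18. Between 30 and 60 min the correlation was 0.30 for letter a, 0.25 for b and 0.02 for c. The crossed pairs of a and b at these times stood at -0.27 and -0.26. In 8 of 18 combinations of an array and another time was the best match the array of the same letter. These values do not settle whether the letters pair the arrays, and the letter was a block only in an alternative. Over all probe sets, the count at 30 min was 74, against 117 with a constant of 50, 39 without a filter, 145 after quantile normalization, 40 without a variance trend, 259 with the block, 389 in a fit of 2 times and 16 to 557 with 1 array left out. At 60 min it was 1031, against 652 without a filter and 77 to 1584 with 1 array left out. Between 60 and 30 min it was 2, against 1 with the block or in a fit of 2 times and 0 to 5 with 1 array left out. The F test called 366, against 158 without a filter, 184 without a variance trend, 834 with the block and 18 to 659 with 1 array left out. Signs of uncalled members turned in 45 of the 654 values under alternatives. Except where a value shows it, the cause of these differences was not tested.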
